A study of Homo sapiens with 6 samples.

Results

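The core autophagy machinery was followed through 39 genes, chosen by symbol for their place in the pathway: initiation, nucleation, lipid transfer, conjugation, the ATG8 proteins, cargo receptors and the transcription factors TFEB and TFE3. All 39 were found among the 27009 genes of the table, and all 39 passed the filter on low values and were tested. RNA had been sequenced from Hep3B, a human hepatocellular carcinoma line, to ask how nuclear PD-L1 changes gene expression in cells that lack their own PD-L1. All 6 libraries came from cells with the endogenous PD-L1 gene knocked out. The 3 vector libraries came from such cells carrying the empty vector. The other 3, labelled nPD-L1, came from such cells carrying a PD-L1 mutated so that it is held in the nucleus. The study's methods describe stable lines made by lentiviral delivery of a CMV-driven construct with puromycin selection, and do not say how many clones each line held.

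Macroautophagy encloses cytoplasm in a double membrane that closes into an autophagosome and fuses with the lysosome. The ULK1 kinase complex starts the process, is activated by AMPK and is inhibited by mTORC1. The class III phosphatidylinositol 3-kinase then marks the membrane, ATG2 and ATG9 proteins supply lipid, and a pair of ubiquitin-like conjugation systems attach ATG8 proteins (LC3 and GABARAP) to it, where cargo receptors dock. TFEB and TFE3 move to the nucleus when mTORC1 is inactive and bind CLEAR elements, sites built around the letters CACGTG, in promoters of lysosome and autophagy genes.

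The libraries held 17427519 to 22253295 reads on genes. Values are scaled reads, the reads on a gene divided by a size factor for its library. Levels of different genes are compared only as scaled reads per kilobase of gene length. That length is the one listed for the gene and may differ from that of the transcripts expressed, so such comparisons are approximate. Differences are log2 fold changes of the libraries labelled nPD-L1 over the vector libraries on log2(scaled reads + 1), from limma, and a gene was called when its p, adjusted by Benjamini and Hochberg's method over all 15076 genes tested, was under 0.05. CD274, the gene for PD-L1, stood at 28.3, 38.4 and 47.8 scaled reads in the vector libraries and at 16.8, 19.2 and 30.9 in the nPD-L1-labelled libraries, and was not called (log2 fold change −0.76, adjusted p = 0.338 in limma). CD274 was therefore not higher where a PD-L1 construct had been introduced, and every direction given here rests on the labels. Of 8 hepatocyte and hepatoma markers chosen, 7 were listed among the genes, and AFP was not. ALB, APOA1, APOB and TTR stayed at or under 2.89 scaled reads in every library, so the labelled cell type was not borne out by them. SERPINA1 was low but present in every library (7.91 to 41.4 scaled reads), and FGB was high (962 to 1540). HNF4A was higher in the nPD-L1-labelled libraries (6.24 to 19.2 against 33.8 to 51.6 scaled reads, adjusted p = 0.0232 in limma). The 3 markers of blood cells summed to at most 16.8 scaled reads per library and the 2 of endothelium to at most 6.06. The 3 fibroblast markers summed to 54.0 to 92.9 scaled reads with vector and 454 to 491 in the nPD-L1-labelled libraries, almost all of it COL1A1 (log2 fold change 2.84), while DCN and PDGFRA stayed at or under 9.10. The part of these differences in the results on autophagy genes was not tested, and in bulk RNA fewer cells of a type and less RNA per cell cannot be told apart.

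In the nPD-L1-labelled libraries, ULK1 and TFEB were each raised more than 4-fold, and ATG16L1 was raised by a smaller and less stable amount. The other 36 genes were not called. Thus 3 of 39 autophagy genes were called higher, where 4.04% of all genes tested were, and 0 of 39 were called lower, where 0.922% of all genes were. At an unadjusted p under 0.05 in limma, 5 of the 39 were higher (ULK2 and AMBRA1 were added) against 9.53% of all genes, and 0 were lower against 4.71%. On whole reads recovered from the same table for all 6 libraries, edgeR called 3 higher and 0 lower (4.10% and 0.931% of all genes). DESeq2 called 3 in either direction, all of them higher (6.33% of all genes in either direction). These fits, which also gave the edgeR and DESeq2 results named below, were added after the data were seen. In the planned fits on 4 libraries, ATG16L1 was not called (adjusted p = 0.518 in edgeR and 0.669 in DESeq2). The count is thus not far from what all genes gave. What set ULK1 and TFEB apart was the size of their change beside that of their partners.

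**Figure D1:**
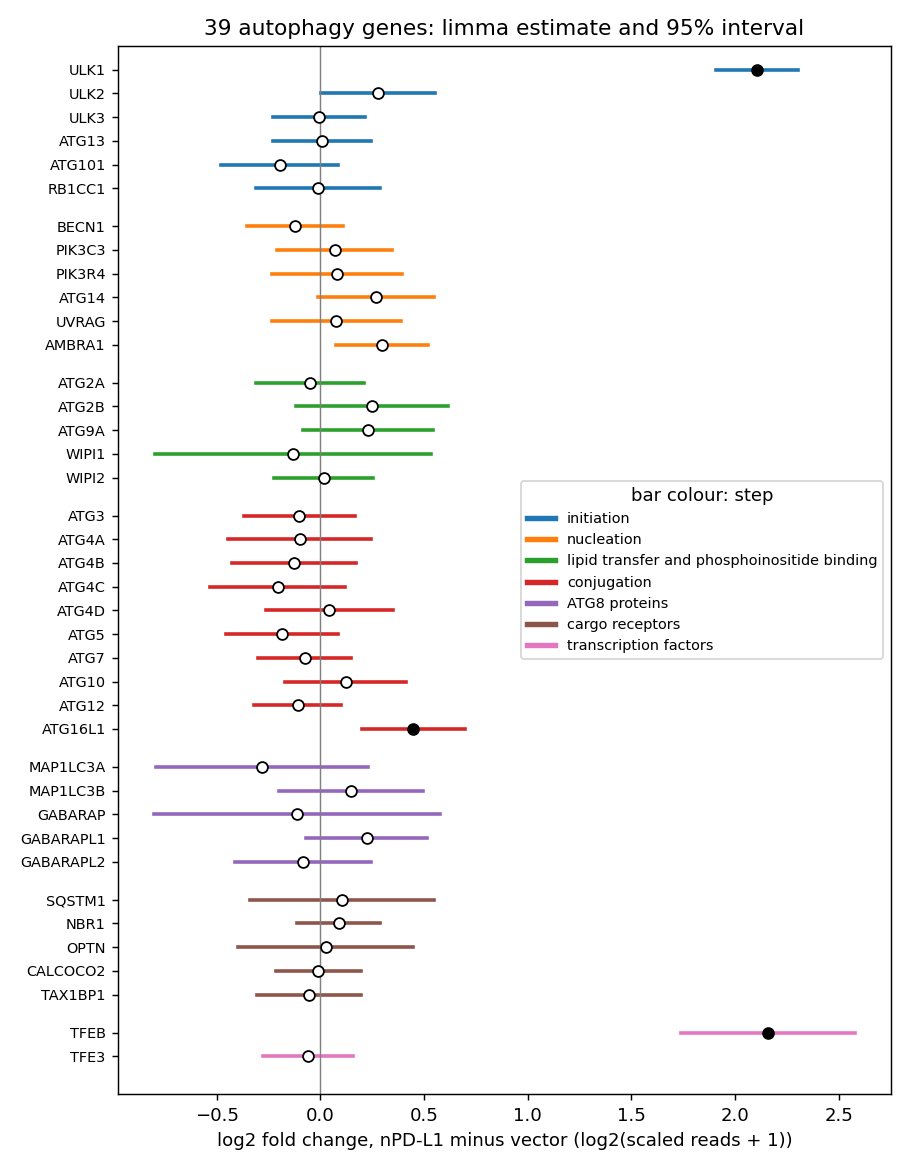
Log2 fold change (x axis, libraries labelled nPD-L1 minus vector, on log2(scaled reads + 1)) of each of the 39 genes, grouped and coloured by step, with the limma estimate as a circle (filled where the adjusted p was under 0.05) and its 95% interval as a bar. ULK1 (2.11) and TFEB (2.16) lie far to the right, ATG16L1 is at 0.45, and the other 36 lie between −0.28 and 0.30.

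For the 36 genes not called, log2 fold changes ran from −0.28 (MAP1LC3A) to 0.30 (AMBRA1), with 17 above and 19 below 0. All 36 of their 95% intervals excluded a 2-fold change in either direction, and 32 of them excluded a 1.5-fold change. The median over all 39 genes was 0.01, beside −0.02 over all genes tested. All nPD-L1-labelled libraries exceeded all vector libraries for 6 of the 39 genes (ULK1, ULK2, ATG14, AMBRA1, ATG16L1 and TFEB), beside 12.0% of all genes. They were all below for 1 of the 39 (ATG12), beside 8.54% of all genes.

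ULK1, the serine/threonine kinase that starts autophagosome formation, lies on chromosome 12 of GRCh38 (chr12:131894651-131923167, + strand, ENSG00000177169). Its scaled reads were 1658, 1638 and 1552 in vector replicates 1 to 3 and 6888, 6901 and 7094 in nPD-L1 replicates 1 to 3. The libraries within a group were close together and the groups were far apart. ULK1 rose by 2.11 on the log2 scale (standard error 0.09, 95% interval 1.91 to 2.30), or 4.31-fold, with an adjusted p of 3.01e-07 in limma. The adjusted p was 6.76e-07 in edgeR and 5.28e-93 in DESeq2. The two-sided exact permutation test gave p = 0.1, the smallest that 3 libraries against 3 allow. The call held in every one of the 23 other settings run, with log2 fold changes of 2.05 to 2.14 and adjusted p values up to 0.00017. A same-strand gene of unknown status inside ULK1, AC131009.4, was at most 16.4 scaled reads in any library.

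The DNA just before the RefSeq transcript start of ULK1 is shown because this gene changed in level while its partners did not pass the test. The sequence (RefSeq, GRCh38.p14) covers 250 bases, reads 5′ to 3′ and has GC-boxes, the letters GGGCGG or their reverse complement CCGCCC that factors of the SP family are known to bind, in capitals. Its GC content was 78%, beside a median of 58% over 35116 promoters.
ULK1 chr12:131894372-131894621 (+ strand): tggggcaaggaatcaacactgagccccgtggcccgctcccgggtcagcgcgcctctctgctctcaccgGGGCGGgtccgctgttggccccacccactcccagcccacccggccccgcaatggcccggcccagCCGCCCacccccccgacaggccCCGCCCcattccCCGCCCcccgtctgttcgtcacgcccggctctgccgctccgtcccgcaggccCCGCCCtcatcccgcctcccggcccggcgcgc
The window held 5 GC-boxes. It held none of 4 other motifs searched on both strands: the E-box CACGTG, the AP-1 site TGANTCA, the CRE TGACGTCA and the forkhead site GTAAACA. No match says only that these letters were not in this window.

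Of the kinases related to ULK1, ULK2, its close paralog in autophagy, stood at 738, 612 and 801 scaled reads with vector and at 928, 853 and 814 in the nPD-L1-labelled libraries. The groups did not overlap, but the gap between them was small: the log2 fold change was 0.28 (95% interval 0.00 to 0.55) and the adjusted p was 0.343 in limma. ULK3, a relative also known for work in Hedgehog signaling, stood at 848, 798 and 817 and at 871, 802 and 781 scaled reads. These groups overlapped, and its log2 fold change was −0.01 (95% interval −0.23 to 0.22). Per kilobase, ULK1 made up 41.0% ± 1.64 of the summed ULK1, ULK2 and ULK3 level with vector and 74.1% ± 1.39 in the nPD-L1-labelled libraries (SD, n = 3). The ratio of ULK1 to ULK2 per kilobase went from 2.96 ± 0.480 to 10.5 ± 0.834 (SD, n = 3).

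The subunits that bind ULK1 were close to level between the groups. ATG13, the regulatory subunit that links ULK1 to the complex, had a log2 fold change of 0.01 (95% interval −0.23 to 0.25). RB1CC1, the scaffold also called FIP200, was at −0.01 (−0.31 to 0.29), and ATG101, which stabilizes ATG13, was at −0.20 (−0.48 to 0.08). Measured against the mean of these 3 subunits per kilobase, ULK1 stood at 0.942 ± 0.0557 with vector and at 4.24 ± 0.106 in the nPD-L1-labelled libraries (SD, n = 3). By this approximate measure, ULK1 stood near the level of the subunits with vector and well above them in the other group. Both ratios, and the share of the ULK kinases, gave p = 0.1 in a two-sided exact permutation test, the smallest possible here. Among the 39 genes, ULK1 ranked 12 by scaled reads per kilobase with vector (212) and 2 in the nPD-L1-labelled libraries (915), after SQSTM1.

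**Figure D2:**
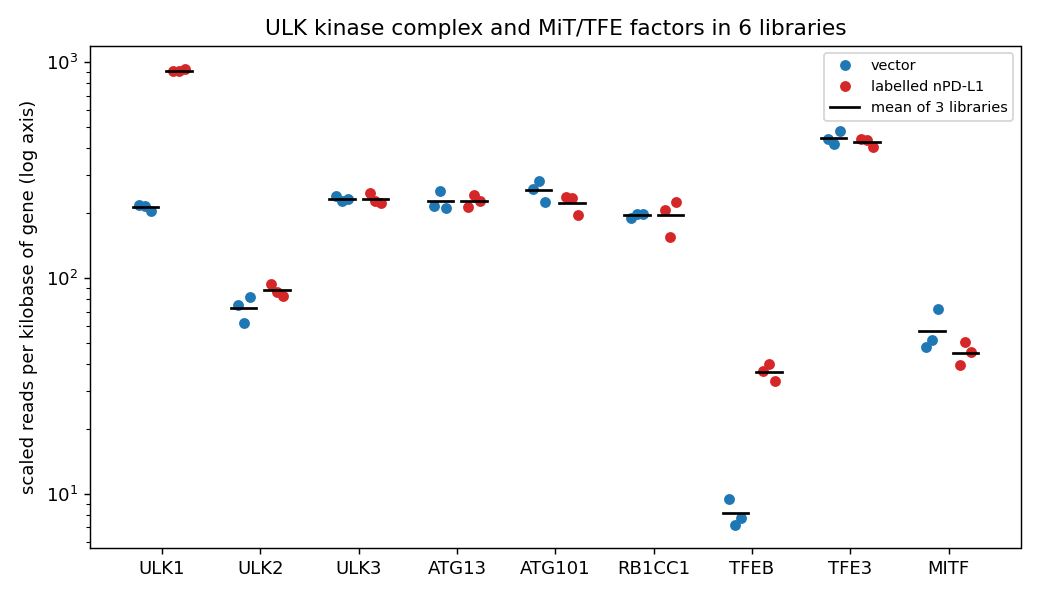
Scaled reads per kilobase of gene (y axis, log scale) for the ULK kinases, the 3 ULK1 complex subunits and the MiT/TFE factors in each of the 3 vector and 3 nPD-L1-labelled libraries (points), with the mean of 3 libraries as a bar. ULK1 moved from 212 to 915 and TFEB from 8.13 to 36.8, while TFE3 stayed at 447 and 428.

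TFEB, the basic helix-loop-helix factor that drives lysosome and autophagy genes, lies on chromosome 6 (chr6:41683978-41736259, − strand, ENSG00000112561). Its scaled reads were 53.5, 40.7 and 43.6 with vector and 209, 227 and 188 in the nPD-L1-labelled libraries. The lowest value of the second group was more than 3 times the highest of the first. TFEB rose by 2.16 on the log2 scale (standard error 0.19, 95% interval 1.74 to 2.58), or 4.47-fold, with an adjusted p of 6.42e-05 in limma, 5.63e-05 in edgeR and 6.41e-19 in DESeq2. It was called in all 23 other settings, with log2 fold changes of 1.97 to 2.27 and adjusted p values up to 0.00261. The gene on the opposite strand within it, AL035588.1, was listed at 0 in 5 libraries and at 1.68 in the other.

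TFEB nevertheless remained far below TFE3 in level, while it came near MITF. TFE3, its relative with overlapping targets, stood at 1892, 1786 and 2064 scaled reads with vector and at 1895, 1877 and 1734 in the nPD-L1-labelled libraries. The groups overlapped, and the log2 fold change was −0.06 (95% interval −0.28 to 0.16). Per kilobase, TFE3 was 55.6 ± 8.11 times TFEB with vector and 11.7 ± 0.656 times in the nPD-L1-labelled libraries (SD, n = 3). MITF, the family member known from melanocytes, ran from 346 to 517 scaled reads with vector and from 283 to 363 in the nPD-L1-labelled libraries (log2 fold change −0.33, adjusted p = 0.452 in limma). Per kilobase, MITF ran from 48.2 to 71.9 with vector, beside 7.20 to 9.47 for TFEB. In the nPD-L1-labelled libraries MITF ran from 39.4 to 50.6 per kilobase, beside 33.3 to 40.1 for TFEB. TFEB made up 1.60% ± 0.270 of the TFEB, TFE3 and MITF level per kilobase with vector and 7.20% ± 0.352 in the nPD-L1-labelled libraries (SD, n = 3). These ratios and shares gave p = 0.1 in a two-sided exact permutation test.

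RefSeq lists 3 transcript starts for TFEB with a promoter sequence here, and the gene-level values cannot tell which start was used. The 250 bases before each (GRCh38.p14, shown 5′ to 3′ on the − strand, GC-boxes in capitals) are set out because TFEB, like ULK1, rose about 4-fold.
TFEB chr6:41735609-41735858 (- strand): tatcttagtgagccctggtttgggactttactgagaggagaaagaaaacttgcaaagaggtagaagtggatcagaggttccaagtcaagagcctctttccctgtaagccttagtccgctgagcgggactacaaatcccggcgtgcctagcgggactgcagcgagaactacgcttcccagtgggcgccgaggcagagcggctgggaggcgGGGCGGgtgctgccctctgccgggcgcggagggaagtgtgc
TFEB chr6:41735061-41735310 (- strand): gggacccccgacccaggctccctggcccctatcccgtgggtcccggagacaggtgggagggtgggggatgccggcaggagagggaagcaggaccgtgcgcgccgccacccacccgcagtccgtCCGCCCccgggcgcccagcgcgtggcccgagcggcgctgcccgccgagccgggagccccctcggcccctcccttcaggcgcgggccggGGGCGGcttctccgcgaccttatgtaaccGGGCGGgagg
TFEB chr6:41734402-41734651 (- strand): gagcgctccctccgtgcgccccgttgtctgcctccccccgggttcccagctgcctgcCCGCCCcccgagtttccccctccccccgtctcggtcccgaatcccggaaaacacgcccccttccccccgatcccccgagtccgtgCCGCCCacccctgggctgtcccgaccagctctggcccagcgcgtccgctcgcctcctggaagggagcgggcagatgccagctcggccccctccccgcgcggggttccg
The windows held 1, 3 and 2 GC-boxes and had GC contents of 59.6%, 78.4% and 75.6%. None of them held the E-box, AP-1, CRE or forkhead letters. Of the 5 motifs searched, the GC-box alone stood in both the ULK1 and the TFEB windows, as it does before many genes.

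Promoter sequences were matched for 35 of the 39 genes (45 promoters), and none was at hand for RB1CC1, UVRAG, ATG4D and MAP1LC3A. The E-box letters stood in 3 of the 45 promoters, those of ATG14, ATG3 and ULK3, which is 6.67% beside 6.34% of all 35116 promoters. The AP-1 letters stood before TFE3 (2.22% of member promoters, 6.57% of all), the CRE letters before GABARAPL1 (2.22% and 1.65%) and the forkhead letters before CALCOCO2 (2.22% and 2.98%). GC-boxes stood in 32 of 45 member promoters (71.1%), beside 42.6% of all. They stood before ULK3, ATG101 and TFE3, which were not called, and were not found before ULK2 and ATG13. None of these motifs contains another. A match here is a run of letters, and no binding was measured.

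The next step, nucleation, had 0 of 6 genes called by limma in either direction, with 1 at an unadjusted p under 0.05 and 0 in edgeR and DESeq2, and a median log2 fold change of 0.08. AMBRA1, a scaffold that ties the ULK1 and Beclin 1 complexes together, stood at 766, 735 and 700 scaled reads with vector and at 888, 946 and 870 in the nPD-L1-labelled libraries. The groups did not overlap, yet its log2 fold change of 0.30 (95% interval 0.07 to 0.52) did not pass (unadjusted p = 0.0136, adjusted p = 0.164 in limma). ATG14, the subunit that sends the lipid kinase to autophagy sites, also had no overlap, at 431, 369 and 467 against 505, 481 and 535 scaled reads (log2 fold change 0.27, adjusted p = 0.375 in limma). UVRAG, which takes the place of ATG14 in the endosomal form of the complex, was at 0.08. BECN1 (Beclin 1) was at −0.12, the lipid kinase PIK3C3 (VPS34) at 0.07 and its regulatory subunit PIK3R4 (VPS15) at 0.08, with 95% intervals that all lay between −0.35 and 0.39.

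Of the genes for lipid supply and phosphoinositide binding, 0 of 5 were called in limma, edgeR or DESeq2, and 0 reached an unadjusted p under 0.05. The lipid transfer proteins ATG2A and ATG2B had log2 fold changes of −0.05 and 0.25, and the lipid scramblase ATG9A had 0.23. WIPI2, which recruits ATG16L1 to the marked membrane, was at 0.02 (95% interval −0.22 to 0.26). WIPI1 was the least precise gene of this step (−0.13, 95% interval −0.80 to 0.53), with coefficients of variation of 37.8% and 34.0% in the groups.

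In the conjugation step, 1 of 10 genes, ATG16L1, was called. ATG16L1 holds the ATG12-ATG5 conjugate on the membrane and so fixes where ATG8 proteins are attached (chr2:233210051-233295674, + strand, ENSG00000085978). Its scaled reads were 491, 466 and 554 with vector and 699, 652 and 708 in the nPD-L1-labelled libraries. The groups did not overlap, and ATG16L1 rose by 0.45 on the log2 scale (standard error 0.11, 95% interval 0.20 to 0.70), or 1.37-fold, with an adjusted p of 0.0488 in limma, 0.0454 in edgeR and 0.0177 in DESeq2. This call sat at the edge of the threshold. It was lost without vector replicate 1 (adjusted p = 0.205 in limma) or without nPD-L1 replicate 1, 2 or 3 (0.175, 0.143 and 0.22), and it held in 10 of 23 other settings. The adjusted p ran from 0.0165 to 0.669 over those settings, while the log2 fold change stayed between 0.40 and 0.52.

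The other conjugation genes lay mostly just below 0, and the median of the 10 was −0.10. The partners of ATG16L1 were not called: ATG5 was at −0.18 (95% interval −0.46 to 0.09) and ATG12 at −0.11 (−0.32 to 0.10). ATG12 stood at 1026, 1083 and 1090 scaled reads with vector and at 950, 992 and 1023 in the nPD-L1-labelled libraries, so the groups did not overlap but lay very close (adjusted p = 0.674 in limma). ATG7, the E1-like enzyme, was at −0.08, and the E2-like enzymes ATG3 and ATG10 were at −0.10 and 0.12. The ATG4 proteases, which trim ATG8 proteins and release them from membranes, were at −0.10 (ATG4A), −0.13 (ATG4B), −0.21 (ATG4C) and 0.04 (ATG4D). Of these 10 genes, 0 were lower at an unadjusted p under 0.05 in limma, and edgeR and DESeq2 called 0 lower.

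Of the ATG8 proteins, which carry the lipid anchor and bind receptors, 0 of 5 were called in limma, edgeR or DESeq2, and 0 reached an unadjusted p under 0.05. MAP1LC3B, the usual LC3 marker of autophagosomes, stood at 1447, 2181 and 1401 scaled reads with vector and at 1727, 1911 and 1822 in the nPD-L1-labelled libraries. A single library, vector replicate 2, lay above the whole of the other group. The log2 fold change was 0.15 (95% interval −0.20 to 0.49; adjusted p = 0.732 in limma), and without vector replicate 2 it was 0.35 and was called (adjusted p = 0.0248 in limma, in a range of 0.0248 to 1 over its settings). Reads of MAP1LC3B can be shared with its near-identical copy MAP1LC3B2. MAP1LC3A was at −0.28, GABARAPL1 at 0.22 and GABARAPL2 at −0.08. GABARAP was low (32.8 to 65.5 scaled reads) and imprecise, at −0.11 (95% interval −0.80 to 0.58). A gene on the opposite strand, AC120057.3, overlaps it and was at most 9.08 scaled reads in any library. Whether reads in the overlap were left uncounted was not tested.

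SQSTM1, the p62 receptor that carries ubiquitinated cargo and is itself degraded by autophagy, was the most abundant of the 39 per kilobase in both groups (3464 and 3649 scaled reads per kilobase). It stood at 24794, 35235 and 19506 scaled reads with vector and at 24205, 33067 and 26521 in the nPD-L1-labelled libraries. The groups overlapped, and the log2 fold change of 0.11 had a 95% interval from −0.34 to 0.55 (adjusted p = 0.856 in limma). The other receptors were not called either: NBR1, a relative of p62, was at 0.09, the mitophagy receptor OPTN at 0.03, CALCOCO2 (NDP52), which targets bacteria, at −0.01 and TAX1BP1 at −0.05. Of the 5 receptors, 0 were called in limma, edgeR or DESeq2, and 0 reached an unadjusted p under 0.05.

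Within the vector group, 1 library stood apart for many of these genes. Vector replicate 2 was the highest of the 3 vector libraries for 25 of the 39 genes, beside 40.9% of all genes tested. It was highest for all 5 ATG8 proteins, all 5 cargo receptors and 8 of 10 conjugation genes, and for neither transcription factor. In the other group nPD-L1 replicate 2 was highest for 20 of the 39 genes, beside 31.9% of all genes. Without vector replicate 2 the median log2 fold change of the 39 was 0.09, and ULK1, TFEB and ATG16L1 were still called. The share of mitochondrial reads was 4.59% to 5.85% over the 6 libraries.

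**Figure D3:**
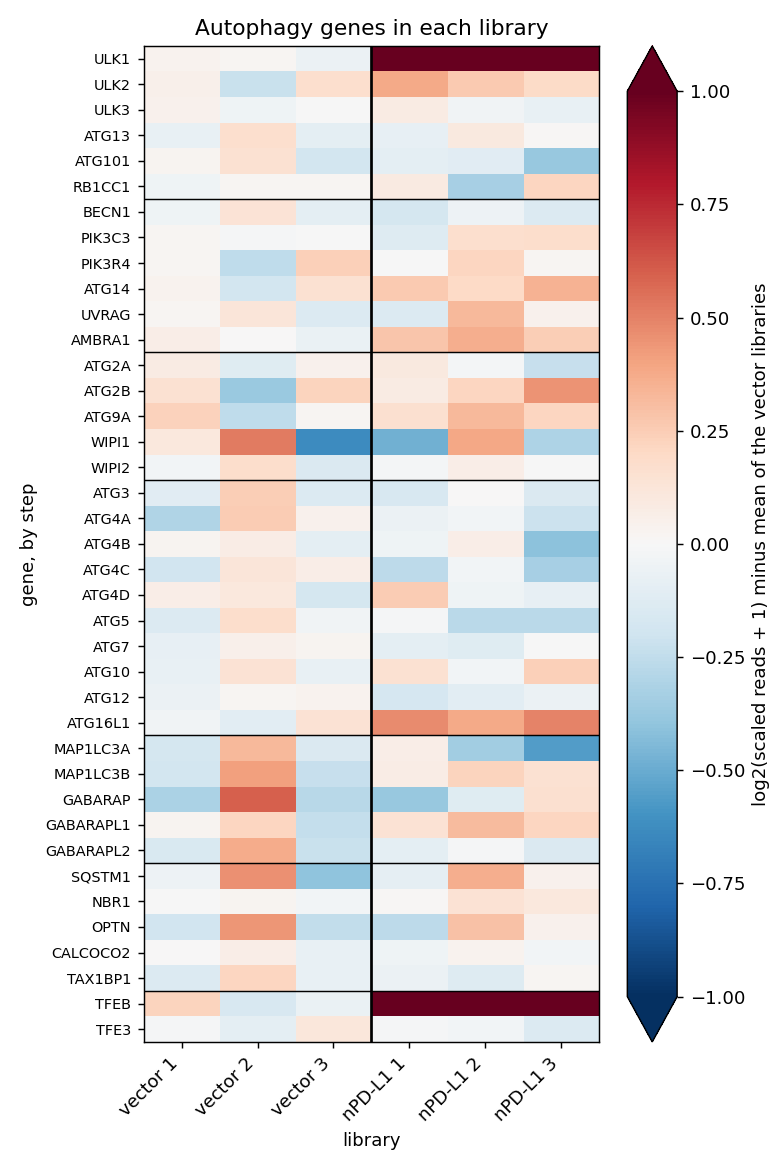
Each gene (rows, by step) in each library (columns), as log2(scaled reads + 1) minus the mean of the vector libraries, with the colour scale ending at −1 and 1. ULK1 and TFEB run past the scale in all 3 nPD-L1-labelled libraries, and the column of vector replicate 2 is high for the ATG8 proteins and cargo receptors.

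The targets that TFEB is known for were examined next. In a list of 43 lysosome genes with published CLEAR elements (proton pump subunits, hydrolases and membrane proteins), 0 were called in either direction in limma, edgeR or DESeq2, and 0 reached an unadjusted p under 0.05. Over all genes tested, 4.04% were called higher and 0.922% lower in limma, and 9.53% and 4.71% were so at an unadjusted p. The median log2 fold change was −0.04, with 17 above and 26 below 0, and values ran from −0.25 (NAGLU, a heparan sulfate hydrolase) to 0.23 (ATP6V0A1, a proton pump subunit). All 43 of the 95% intervals excluded a 2-fold change, and 39 excluded a 1.5-fold change. LAMP1 (−0.10) and LAMP2 (0.04), the main lysosomal membrane glycoproteins, the calcium channel MCOLN1 (−0.11) and the protease CTSD (−0.14) were picked as familiar examples after their values had been seen. The list median was 0.09 without vector replicate 2 and −0.12 without vector replicate 3, so its sign rested on single libraries, and 0 of the 43 were called in any setting. Promoter sequences were matched for 27 of the 43 genes, so they do not describe the whole list. The E-box letters stood in 12 of their 39 promoters (30.8%), beside 6.34% of all 35116 promoters. The list was made of genes with published CLEAR elements, which contain these letters, so this share follows from its choice.

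Further lists around the pathway were read against the same shares of all genes, 4.04% called higher and 0.922% called lower in limma. At an unadjusted p under 0.05 in limma, these shares were 9.53% and 4.71%. Of 18 further autophagosome formation genes tested, 0 were called in limma, edgeR or DESeq2 and 1 was higher at an unadjusted p under 0.05 (VMP1, a lipid scramblase of the endoplasmic reticulum, 0.30), with a median of 0.09. Of 19 genes for fusion with the lysosome, 0 were called in limma, edgeR or DESeq2 and 1 was higher at an unadjusted p under 0.05, with a median of 0.00. Without vector replicate 2, TMEM41B, a lipid scramblase of the first of these lists, was called (adjusted p = 0.0128 in limma), and its adjusted p went up to 1 in other settings.

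Of 21 other receptors of selective autophagy, 1 was called higher and 0 lower, and the median was 0.15. At an unadjusted p under 0.05 in limma, 3 of the 21 were higher and 0 lower, beside 9.53% and 4.71% of all genes. The called gene was STBD1, a receptor that brings glycogen to autophagosomes. It stood at 29.3, 42.9 and 35.3 scaled reads with vector and at 65.5, 83.9 and 72.3 in the nPD-L1-labelled libraries, with no overlap. STBD1 rose by 1.03 on the log2 scale (standard error 0.24, adjusted p = 0.0346 in limma, 0.0379 in edgeR and 0.0113 in DESeq2). The call was lost without vector replicate 1 or 3 (adjusted p = 0.15 and 0.0543 in limma) and without nPD-L1 replicate 1, 2 or 3 (0.0914, 0.196 and 0.138), in a range of 0.00991 to 0.913 over its settings. PINK1, the kinase that starts mitophagy, had no overlap either but was not called (0.50, adjusted p = 0.181 in limma). The same held for NCOA4 (0.23) and BCL2L13 (0.12). All nPD-L1-labelled libraries thus exceeded all vector libraries for 4 of the 21, beside 12.0% of all genes. CCPG1, a receptor for the endoplasmic reticulum, was called only without vector replicate 2 (adjusted p = 0.0309 in limma, up to 1 in other settings).

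Of 27 genes of mTORC1 and its regulators, a list that also held MITF, 1 was called higher and 0 lower, and the median was −0.06. At an unadjusted p under 0.05 in limma, 2 of the 27 were higher and 0 lower, beside 9.53% and 4.71% of all genes. The called gene was DDIT4 (REDD1), a stress-induced inhibitor of mTORC1. It stood at 2044, 1946 and 2327 scaled reads with vector and at 3258, 3727 and 2884 in the nPD-L1-labelled libraries, again with no overlap. DDIT4 rose by 0.64 on the log2 scale (standard error 0.12, adjusted p = 0.00941 in limma, 0.00902 in edgeR and 7.93e-05 in DESeq2). The call was lost without vector replicate 1 (adjusted p = 0.0661 in limma) and without nPD-L1 replicate 1 or 2 (0.0595 and 0.0635), in a range of 7.93e-05 to 0.355 over its settings. FNIP2, a folliculin partner, was at 0.65 and was not called (adjusted p = 0.189 in limma), except without vector replicate 3 (0.0104, in a range of 0.0104 to 1 over its settings).

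**Figure D4:**
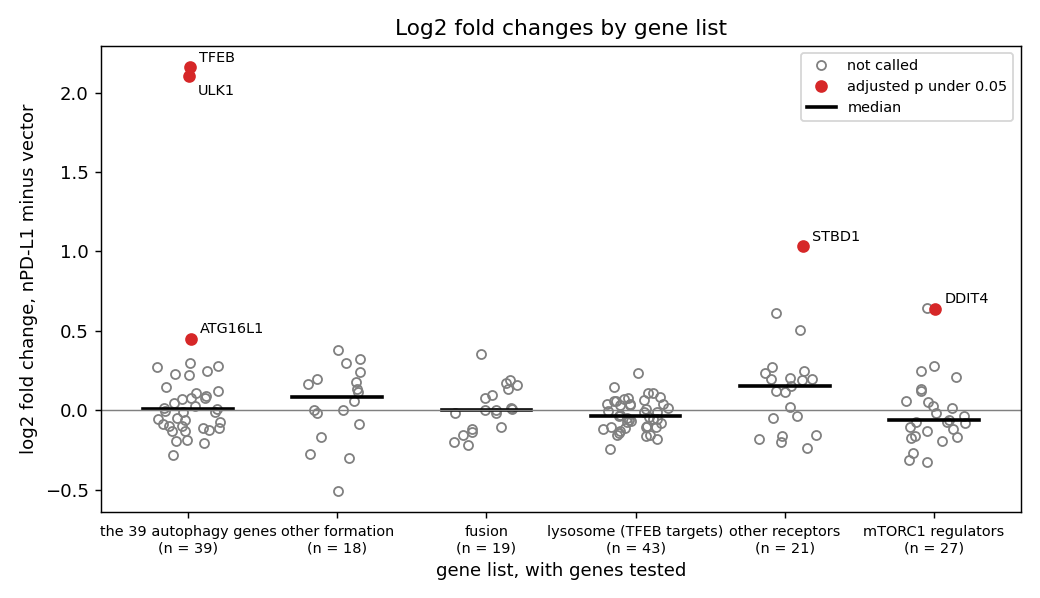
Log2 fold changes (y axis, libraries labelled nPD-L1 minus vector) of the genes tested in the autophagy list and in 5 related lists (x axis), with a filled point for each gene with an adjusted p under 0.05 in limma and a bar for each median. The medians lie between −0.06 and 0.15, the named points are the called genes, and the 43 lysosome genes lie between −0.25 and 0.23.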

How the data were processed

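RNA from 3 vector and 3 nPD-L1 libraries of PD-L1-knockout Hep3B cells had been sequenced by a company. The authors deposited a signal per gene and library, presented as raw but equal to reads divided by a library size factor. After division by the value of 1 read (0.840 to 1.13), 100% of values lay within 0.01 of a whole number, beside 17.1% to 26.2% before. The submitters' processing notes name CASAVA, HISAT2 2.0.5 and hg38. The read counter, annotation and use of strand are not given in the sources used here. Group means, log2 fold changes, p-values and adjusted p-values of the authors' own comparison were not used.

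Genes that reached a value of 10 in 3 or more libraries were tested by limma 3.58.1 (R 4.3.3; log2(value + 1), trend and robust eBayes, Benjamini-Hochberg). limma was the planned test, because the values were known from earlier work to be scaled reads. A count test was to replace limma only if the values turned out to be whole, which they were not. edgeR 4.0.16 (quasi-likelihood) and DESeq2 1.42.0 were run on recovered reads, those of all 6 libraries as an alternative added after the data were seen. The procedures were tested on simulated reads, drawn independently for each gene and with the same dispersion for all genes. That test does not cover the wider spread of some genes here, or a library that is high for many genes. A fold change on this scale understates the change of low genes. Nothing says that libraries of a group came from separate cultures, so p-values measure the spread between these libraries, which may be technical. Same-numbered libraries correlated at −0.01, 0.23 and 0.13 in their deviations, and differently numbered ones at −0.22 to 0.08. The labels do not call the numbers pairs, so they were not taken as pairs in the main fit. Whether libraries of the same number shared a batch was not tested.

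The members and lists were chosen with earlier results of these data known. Values of each library were given for members that were called or did not overlap, and for ULK1, ULK2, ULK3, TFEB, TFE3 and SQSTM1; MAP1LC3B was added because of 1 library. From the lists, called genes were named, and others named were chosen after their values were seen. Alternatives were other scalings, filters, pseudocounts, moderation, protein-coding genes only, a gene length trend (loess, span 0.3), thresholds, a block on replicate number, omission of single libraries, and fits on the 4 libraries whose read recovery was clearest.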

Additional observations from a re-analysis of the deposited data

How the results depend on the processing

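ULK1 and TFEB kept their direction and call in all 23 alternatives, and 0 of the 39 genes were called lower in any. The number called higher was 2 to 4 with a library left out and 2 or 3 elsewhere, except 5 at an unadjusted p. The median log2 fold change of the 39 was −0.035 after removal of the gene length trend and ran from −0.0381 (without vector replicate 3) to 0.0925 (without vector replicate 2) when a library was left out, so its sign was not stable. The replicate block gave 3 higher and 0 lower, with a median of 0.0094. Over all genes it gave 927 higher and 258 lower calls, beside 609 and 139 without it. Vector replicates 2 and 3 correlated best with their own number (0.23 and 0.13), but vector replicate 1 did so with nPD-L1 replicate 3 (0.07). For 4 of the 36 genes not called, GABARAP at under 66 scaled reads among them, a 1.5-fold change lay inside the 95% interval. Scalings moved the median of all genes to between −0.0447 and −0.0089. The causes of these shifts were not tested.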
